A study of Mus musculus with 8 samples.

Results

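Genes of the basement membrane and of collagen folding were followed in mouse embryonic stem cells with and without Klf4. They are Lama1, Lamb1, Lamc1, Nid1, Hspg2, Col4a1, Col4a2, Serpinh1, Sparc and Fn1, chosen by symbol with earlier results of these data known, and all 10 of them were found among the 52636 gene identifiers of the count files and passed the filter on low counts. The cells were E14 embryonic stem cells, a line from the blastocyst, either KLF4-KO or wild type (WT), and both genotypes shared the line, the gelatin coating and the media. The labels describe a medium with 15% serum, 10 ng/mL LIF, 1 µM of the MEK inhibitor PD0325901 and 3 µM of the GSK3 inhibitor CHIR99021, and another with 1000 U/mL LIF. Which of them each library was grown in, how Klf4 was disrupted and whether the KO libraries come from 1 clone was not given in the sources used here. RNA-seq comprised 2 KO libraries (B and F) and 2 WT libraries (replicates 1 and 2), with 8448519 and 8287497 gene counts in KO and 9020599 and 9762190 in WT. RNA polymerase II HiChIP, which counts paired-end tags (PETs) joining sites that lie close together in the nucleus, was analysed as 1 pool of replicates per genotype. Positions are those of RefSeq on GRCm38, the assembly that mm10 names, and gene spans are meant.

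The basement membrane is a thin sheet of matrix that cells secrete under themselves. Laminin, a trimer of an alpha, a beta and a gamma chain, forms its first network, type IV collagen forms the other one, and nidogen and the proteoglycan perlecan tie them together. In the mouse embryo the epiblast and the primitive endoderm meet across such a sheet, and cultured embryonic stem cells make laminin as well. Collagen chains are folded in the endoplasmic reticulum with the help of a dedicated chaperone, HSP47, which Serpinh1 encodes.

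The genes did not move together. Serpinh1, Sparc and Lama1 fell in KO cells, Lamb1 and Col4a1 rose, and Lamc1, Nid1, Hspg2, Col4a2 and Fn1 did not pass the test (edgeR quasi-likelihood test with Benjamini-Hochberg adjustment, false discovery rate, FDR, under 0.05). Thus 5 of 10 were called, against 8.3% of all 15517 tested genes, with 3 of 10 lower, against 5.34%, and 2 of 10 higher, against 2.96%. Since the choice was made with such results known, these shares are a description. The median log2 fold change of the 10 genes was -0.79, beside -0.0015 for all tested genes. With no expression filter the edgeR test called 0 of the 10 (7 at an unadjusted p under 0.05), and in the whole table it called 1 gene higher and 1 lower. DESeq2 called 7 of the 10, adding Fn1 and Nid1 to the lower ones. It also called more of all 15517 genes, 631 higher and 1013 lower, against 460 and 828 in edgeR. The labels call the libraries biological replicates and say no more of their origin, so p-values measure the spread between these libraries.

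The promoters of genes that passed the test, where the table held one, with that of Col4a2, which starts beside Col4a1, and of Hspg2, which had the most contacts, are printed to show what lies at the starts described below. Each window runs from 250 bases before to 50 after an annotated start (RefSeq, GRCm38.p6), 5′ to 3′ on the gene's strand. Capitals mark the letters GGGCGG, a GC box bound by SP and KLF factors, and the KLF-type letters GGGTGTG and GGGCGTG, each on either strand.
Serpinh1, chr7:99353190-99353489, minus strand: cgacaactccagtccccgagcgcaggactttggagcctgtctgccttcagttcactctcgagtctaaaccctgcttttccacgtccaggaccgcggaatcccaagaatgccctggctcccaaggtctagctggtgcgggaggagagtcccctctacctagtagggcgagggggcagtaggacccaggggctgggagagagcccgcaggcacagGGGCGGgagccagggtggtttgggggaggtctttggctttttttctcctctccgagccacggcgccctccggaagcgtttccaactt
Sparc, chr11:55420031-55420330, minus strand: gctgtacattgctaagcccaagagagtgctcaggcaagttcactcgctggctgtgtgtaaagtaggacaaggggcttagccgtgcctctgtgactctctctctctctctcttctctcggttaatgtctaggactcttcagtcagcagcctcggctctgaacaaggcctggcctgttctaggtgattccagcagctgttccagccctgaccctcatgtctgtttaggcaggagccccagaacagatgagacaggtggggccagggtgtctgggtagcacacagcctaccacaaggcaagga
Lamb1, chr12:31265043-31265342, plus strand: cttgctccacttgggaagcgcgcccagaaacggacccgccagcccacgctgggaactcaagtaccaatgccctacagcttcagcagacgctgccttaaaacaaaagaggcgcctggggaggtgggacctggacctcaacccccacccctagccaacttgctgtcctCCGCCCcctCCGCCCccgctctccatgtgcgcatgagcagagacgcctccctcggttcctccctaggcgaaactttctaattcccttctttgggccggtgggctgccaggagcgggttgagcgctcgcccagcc
Col4a1, chr8:11312777-11313076, minus strand: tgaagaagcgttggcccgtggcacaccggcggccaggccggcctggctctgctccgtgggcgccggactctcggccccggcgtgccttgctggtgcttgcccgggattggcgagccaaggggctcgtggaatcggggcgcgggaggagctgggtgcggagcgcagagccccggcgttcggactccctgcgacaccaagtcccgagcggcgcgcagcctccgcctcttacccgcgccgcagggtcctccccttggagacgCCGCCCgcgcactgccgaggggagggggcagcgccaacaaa
Col4a2, chr8:11312555-11312854, plus strand: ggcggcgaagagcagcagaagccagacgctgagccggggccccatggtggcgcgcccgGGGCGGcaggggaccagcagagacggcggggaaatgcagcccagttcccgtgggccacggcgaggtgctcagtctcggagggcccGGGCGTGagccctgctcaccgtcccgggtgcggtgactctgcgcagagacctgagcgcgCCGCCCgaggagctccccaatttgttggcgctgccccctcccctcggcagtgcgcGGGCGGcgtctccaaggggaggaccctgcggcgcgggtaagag
Hspg2, chr4:137468553-137468852, plus strand: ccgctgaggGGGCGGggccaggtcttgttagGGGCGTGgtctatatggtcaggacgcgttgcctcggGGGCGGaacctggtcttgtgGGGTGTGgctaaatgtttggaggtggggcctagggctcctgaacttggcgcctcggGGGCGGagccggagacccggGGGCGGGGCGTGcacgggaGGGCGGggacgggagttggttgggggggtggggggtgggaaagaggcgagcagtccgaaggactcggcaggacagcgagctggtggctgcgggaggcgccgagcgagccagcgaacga

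Serpinh1 had 1 GC box, which begins at base -37 from the start, and Lamb1 had 2, at -84 and -75. The Sparc window held none of these letters and was the poorest in CpG, with 4 CpG dinucleotides against 16 for Serpinh1, 18 for Lamb1 and 37 for Col4a1. The KLF-type letters GGGCGTG occurred in the windows of Col4a2 and Hspg2 and GGGTGTG in that of Hspg2, where a GC box and a GGGCGTG overlap in the run GGGCGGGGCGTG. Windows were found for 7 of the 10 genes, Nid1 being the other, and 6 of those 7 held a GC box, against 35.7% of all 32851 windows in the table. GGGCGTG stood in 2 of the 7 and 8.44% of all windows, GGGTGTG in 1 and 7.95%, and the letters TATAAA in none and 13.6%. The windows of Col4a1 and Col4a2 lie on opposite strands and share 78 bases at their 3′ ends, and the annotated starts lie 21 bases apart. All 7 windows were richer in G and C, from 55.33% for Sparc to 74.0% for Col4a1, than the median of all windows, 52.67%. The shares above are not adjusted for this. The matches describe letters and no binding.

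Lama1, Lamb1 and Lamc1 encode the chains of the laminin made by the early embryo, and they changed in different directions. Lama1, the alpha chain (ENSMUSG00000032796, chr17:67697127-67822645), had 42.6 and 68.1 CPM (counts scaled to the library total with TMM factors) in KO libraries B and F, against 233.9 and 166.5 CPM in WT replicates 1 and 2. Every KO value lay below every WT value. The fall was 3.61-fold (log2 fold change -1.85, SE 0.31, edgeR FDR 0.012). Lamb1, the beta chain (ENSMUSG00000002900, chr12:31265146-31329644), measured 102.3 and 84.7 CPM in KO libraries B and F and 36.8 and 26.9 CPM in WT replicates 1 and 2, so the KO libraries lay above WT. It rose 2.94-fold (log2 fold change 1.55, SE 0.27, edgeR FDR 0.014). Lamc1, the gamma chain (ENSMUSG00000026478, chr1:153218922-153332786), stood at 344.6 and 612.5 CPM in KO libraries B and F, against 822.6 and 433.1 CPM in WT replicates 1 and 2. KO library F exceeded WT replicate 2, so the groups overlap (log2 fold change -0.39, 95% interval -1.28 to 0.50, edgeR FDR 0.59).

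**Figure D1:**
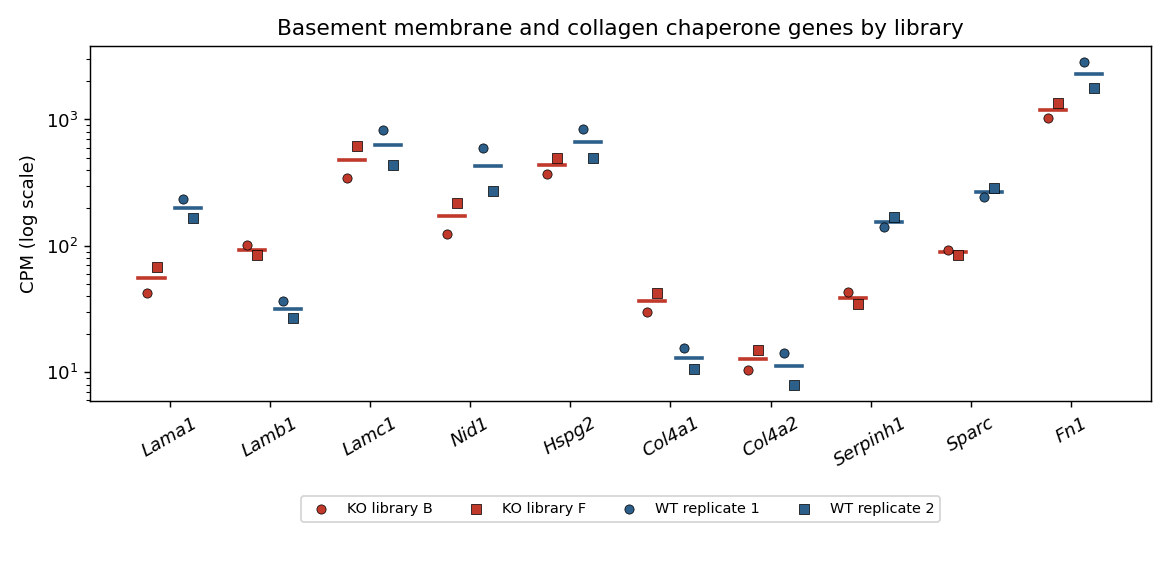
Expression of the 10 genes in CPM on a log axis, with 1 point per library (KO left of WT for each gene) and a bar at the mean of the 2 libraries of a genotype. For Lama1, Serpinh1 and Sparc both KO points lie below both WT points, for Lamb1 and Col4a1 above them, and for Lamc1, Hspg2 and Col4a2 the groups overlap.

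The count ratio of alpha to beta chain shows the split inside each library. There were 0.417 and 0.804 Lama1 reads per Lamb1 read in KO libraries B and F, against 6.36 and 6.20 in WT replicates 1 and 2. Lamc1 reads per Lamb1 read numbered 3.37 and 7.23 in KO libraries B and F, and 22.4 and 16.1 in WT replicates 1 and 2. Both ratios were lower in either KO library than in either WT library. They are ratios of reads and not of transcripts, because exon lengths were not used, and an exact permutation test of 2 against 2 libraries cannot go below p = 0.333.

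Nid1 and Hspg2 encode the linkers of the sheet, nidogen-1 and perlecan. Nid1 (ENSMUSG00000005397, chr13:13437602-13512275) had 123.7 and 220.2 CPM in KO libraries B and F, against 591.6 and 271.4 CPM in WT replicates 1 and 2. The groups do not overlap, but WT replicate 1 had 2.18 times the level of WT replicate 2 (log2 fold change -1.33, 95% interval -2.28 to -0.37, edgeR FDR 0.092). A fit with 1 library left out takes the spread from the other genotype and assumes that the lone library varies alike, so its FDR is no independent check. In such fits Nid1 passed the edgeR threshold without WT replicate 2 (FDR 8.5e-06) and without KO library F (FDR 0.025). Nid1 did not pass without WT replicate 1 (-0.66 on the log2 scale, edgeR FDR 0.14) or without KO library B (-0.98, edgeR FDR 0.31). Hspg2 (ENSMUSG00000028763, chr4:137468751-137570630) stood at 371.9 and 493.4 CPM in KO libraries B and F and 842.8 and 491.9 CPM in WT replicates 1 and 2. KO library F and WT replicate 2 were level (log2 fold change -0.63, 95% interval -1.37 to 0.12, edgeR FDR 0.28; the FDR was 0.030 when WT replicate 2 was left out).

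Type IV collagen in early embryos is built mainly from the products of Col4a1 and Col4a2, neighbours that are transcribed away from each other. Col4a1 (ENSMUSG00000031502, chr8:11198423-11312889) measured 30.2 and 42.8 CPM in KO libraries B and F, against 15.5 and 10.6 CPM in WT replicates 1 and 2. All KO values exceeded all WT values, and it rose 2.80-fold (log2 fold change 1.48, SE 0.33, edgeR FDR 0.033). Without KO library F the edgeR FDR was 0.13 at a log2 fold change of 1.22. Summed markers of primitive and parietal endoderm, cells that secrete much type IV collagen and laminin, were also higher, at 121 and 207 CPM in KO libraries B and F, against 58.3 and 43.9 CPM in WT replicates 1 and 2. Lrp2 alone carried this, and the other 15 markers summed to 20.8 and 19.8 CPM in KO libraries B and F, lower than the 31.1 and 32.2 CPM in WT replicates 1 and 2. The part of these markers in the rise of Col4a1 and Lamb1 was not tested. Col4a2 (ENSMUSG00000031503, chr8:11312805-11449287) had 10.4 and 15.0 CPM in KO libraries B and F and 14.3 and 7.94 CPM in WT replicates 1 and 2, with overlapping groups. Its log2 fold change was 0.19 (95% interval -0.74 to 1.12, edgeR FDR 0.82), and it had the opposite sign without KO library F (-0.09, edgeR FDR 0.98) and without WT replicate 2 (-0.20, edgeR FDR 0.87).

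Across the shared promoter the Col4a1 share of the pair's reads was larger in either KO library than in either WT library. There were 2.90 and 2.84 Col4a1 reads per Col4a2 read in KO libraries B and F, against 1.08 and 1.33 in WT replicates 1 and 2. The ratio was not tested. The annotated spans of Col4a1 and Col4a2 overlap each other at chr8:11312805-11312889. Those of Col4a1 and of the non-coding genes Gm15418 and Gm32709 overlap too, as do those of Col4a2 and Gm46030. The strand setting of the counts was not given in the sources used here, so reads of partners on opposite strands cannot be told apart.

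**Figure D2:**
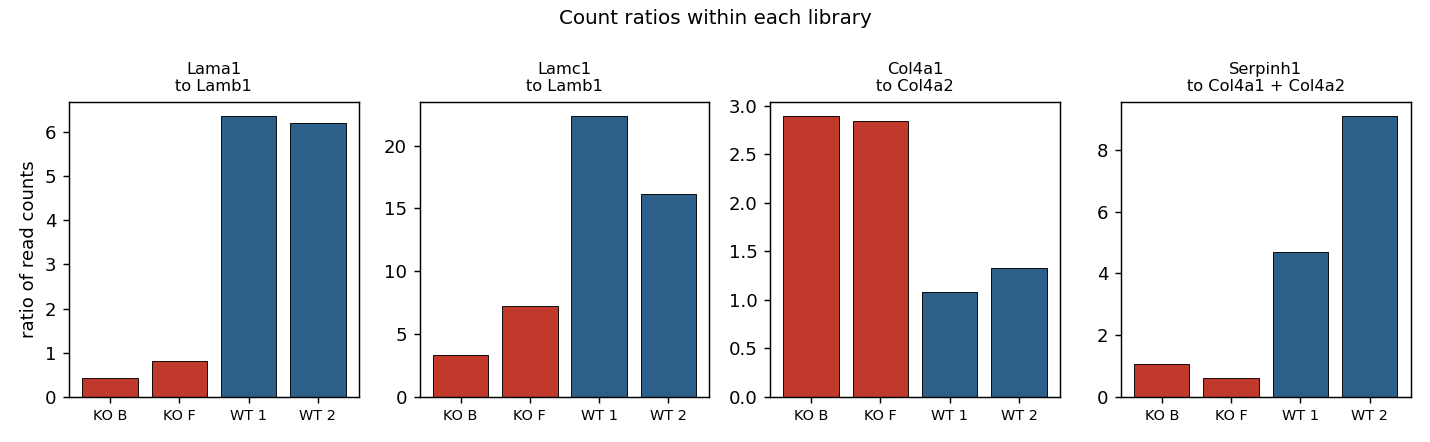
Ratios of read counts within each library for Lama1 to Lamb1, Lamc1 to Lamb1, Col4a1 to Col4a2 and Serpinh1 to the sum of Col4a1 and Col4a2. Bars are single libraries (KO B and F, then WT replicates 1 and 2), and for each ratio the KO and WT bars do not overlap: the Col4a1 to Col4a2 ratio is 2.84 and 2.90 in KO against 1.08 and 1.33 in WT, and the other ratios are lower in KO.

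Serpinh1, the gene of the chaperone HSP47, was among the genes that fell. Serpinh1 (ENSMUSG00000070436, chr7:99345375-99353239) had 43.5 and 34.6 CPM in KO libraries B and F, against 140.6 and 168.4 CPM in WT replicates 1 and 2. Libraries of 1 genotype differed by at most 1.26 times, and the groups are well apart. The fall was 3.96-fold (log2 fold change -1.98, SE 0.26, edgeR FDR 0.0052). Per read of its type IV collagen clients together, Serpinh1 had 1.07 and 0.598 reads in KO libraries B and F and 4.71 and 9.11 in WT replicates 1 and 2. Sparc (ENSMUSG00000018593, chr11:55394159-55420080), which encodes a secreted collagen-binding glycoprotein, measured 93.3 and 85.4 CPM in KO libraries B and F, against 244.1 and 286.7 CPM in WT replicates 1 and 2. Again no KO library reached a WT library (2.97-fold lower, log2 fold change -1.57, SE 0.24, edgeR FDR 0.0092), and the edgeR FDR was 0.066 without KO library F. Summed fibroblast and endothelial markers, both from cell types rich in Serpinh1 and Sparc, were lower in KO as well. The fibroblast sum was 39.2 and 32.7 CPM in KO libraries B and F, against 58.7 and 47.4 CPM in WT replicates 1 and 2, and the endothelial sum was 123.5 and 122.8 CPM in KO, against 212.3 and 187.7 CPM in WT. The single markers were split. Of 16 fibroblast markers 5 were tested, of which 2 had a positive log2 fold change and 3 a negative one, and 3 had no count in any library. Of 7 endothelial markers 3 were tested, of which 1 was positive and 2 were negative, and 2, Cdh5 and Emcn, had no count in any library. The part of these markers in the falls of Serpinh1 and Sparc was not tested.

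Fn1 encodes fibronectin, a matrix glycoprotein that cells bind through integrins. Fn1 (ENSMUSG00000026193, chr1:71585473-71653280) took 44.9% to 46.9% of the reads of the 10 genes in the KO libraries and 48.7% to 49.1% in WT. Its level was 1027 and 1351 CPM in KO libraries B and F, against 2843 and 1768 CPM in WT replicates 1 and 2, without overlap. The log2 fold change was -0.96 (95% interval -1.71 to -0.20, edgeR FDR 0.12). Its FDR was 0.0063 without WT replicate 2, and the log2 fold change was -0.58 without WT replicate 1 (edgeR FDR 0.26).

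The spread between libraries of the same genotype bore on several of these values. WT replicate 1 exceeded WT replicate 2 for 8 of the 10 genes, the exceptions being Serpinh1 and Sparc. Leaving WT replicate 1 out turned the sign of Lamc1 (0.14 on the log2 scale). KO library F exceeded KO library B for 7 of the 10 genes, by 1.78 times for both Lamc1 and Nid1. Neither count was set beside that of all genes. KO and WT values did not overlap for 7 of the 10 genes, against 53.5% of all tested genes, with 5 of 10 lower in KO, against 27.5%, and 2 of 10 higher, against 26%. Without WT replicate 2, the log2 fold changes of Nid1, Fn1 and Hspg2 were -1.82, -1.29 and -0.99, against -1.33, -0.96 and -0.63 with all libraries. Those of Serpinh1 and Sparc were -1.88 and -1.48, against -1.98 and -1.57. Lama1, Lamb1 and Serpinh1 were called with each library left out in turn, at edgeR FDR values of up to 0.0446, 0.0421 and 0.0145.

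**Figure D3:**
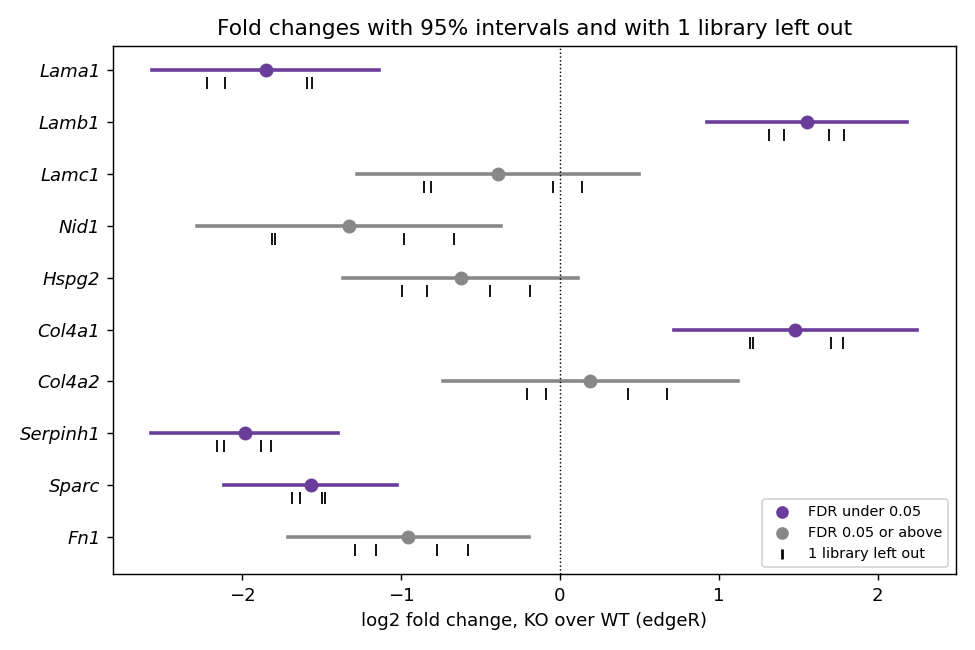
Log2 fold change of KO over WT for each gene (dot) with its 95% interval (line) from edgeR, and the values with 1 library left out (ticks under each line); purple marks an FDR under 0.05 and grey one of 0.05 or above. Intervals of Lama1, Serpinh1, Sparc, Nid1 and Fn1 lie below 0, the last 2 in grey, and those of Lamb1 and Col4a1 above it, while the ticks of Lamc1 and Col4a2 fall on both sides of 0.

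Other genes of the matrix were compared through lists chosen for their roles. The 6 tested laminin chains outside the early trimer had a median log2 fold change of -0.92. Lamb2, the other widely used beta chain, fell to 40.6 ± 2.2 CPM in KO, against 117.4 ± 9.1 in WT (SD, n = 2 each), with a log2 fold change of -1.53 and an edgeR FDR of 0.0098. Lama5, the alpha chain of many adult tissues, was at 299 ± 37.3 CPM in KO and 373 ± 109 in WT (edgeR FDR 0.54).

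Among 13 tested genes of other basement membrane components, 4 fell and 1 rose. Nid2, the paralog of Nid1, fell to 205 ± 28.1 CPM in KO, against 488 ± 151 in WT (log2 fold change -1.25, edgeR FDR 0.037). It lies on chromosome 14, where 17.6% of tested genes were lower and the median log2 fold change was -0.63. Efemp2, which encodes the elastic fibre protein fibulin-4, fell (log2 fold change -2.49, edgeR FDR 0.012), and so did Smoc1, a relative of Sparc (-2.08, edgeR FDR 0.021). Sparcl1, its closest relative here, had 2 and 0 counts in the KO libraries (B, then F) and 20 and 17 in WT replicates 1 and 2 (edgeR FDR 0.039). Frem1, for a basement membrane protein of the Fraser complex, had 11 and 15 counts in the KO libraries (B, then F) and none in WT, at least 9.60-fold higher against a floor of 3 counts over the WT libraries (edgeR FDR 0.021).

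Enzymes and partners of collagen folding split. Of 22 tested genes 3 fell and 2 rose, with a median log2 fold change of -0.21. Crtap, part of a complex that hydroxylates collagen prolines, fell to 64.5 ± 1.7 CPM in KO, against 161.6 ± 31.1 in WT (edgeR FDR 0.018). Colgalt1, which adds sugar to collagen hydroxylysines, fell to 122.0 ± 13.7 CPM in KO, against 247.0 ± 30.4 in WT (edgeR FDR 0.038). Creb3l2, a transcription factor of the secretory pathway, fell as well (log2 fold change -1.77, edgeR FDR 0.017). P4ha1, the catalytic chain of the enzyme that hydroxylates collagen prolines for helix stability, rose to 64.1 ± 9.6 CPM in KO, against 22.0 ± 0.2 in WT (edgeR FDR 0.013). Loxl2, an enzyme that crosslinks type IV collagen, rose to 9.23 ± 0.83 CPM in KO, against 0.86 ± 0.014 in WT (edgeR FDR 0.0067), and lies on chromosome 14 too.

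For general folding genes of the same compartment the count was near the share of all genes. None of 14 tested chaperones of the endoplasmic reticulum passed in edgeR (3 at an unadjusted p under 0.05) or limma voom, and 1 did in DESeq2, while edgeR without WT replicate 2 called 1 higher and 1 lower. Hsp90b1, for the chaperone GRP94, was at 587 ± 69.7 CPM in KO and 350 ± 33.1 in WT (edgeR FDR 0.11). Hspa5, the central chaperone BiP, was at 528 ± 37.7 CPM in KO and 412 ± 35.8 in WT (edgeR FDR 0.42). Serpinh1 is itself a heat-inducible gene. Of 14 tested heat shock genes 1 was called higher in edgeR and none lower, with 5 at an unadjusted p under 0.05. Their log2 fold changes were positive for 8 and negative for 6. The gene called was Hspa4l, for a chaperone of the HSP110 kind, with 7.74 ± 0.28 CPM in KO, against 0.96 ± 0.44 in WT (edgeR FDR 0.014).

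Receptors, proteases and growth factor genes of the matrix were mixed as well. Of 20 tested receptors 3 fell and 1 rose: Itgb5, an integrin beta chain, was at 34.6 ± 4.8 CPM in KO and 89.1 ± 8.0 in WT (edgeR FDR 0.018), Sdc4 (a syndecan) and the collagen receptor gene Ddr2 also fell (edgeR FDR 0.033 and 0.038), and the integrin alpha chain gene Itga9 rose (log2 fold change 2.37, edgeR FDR 0.016). Of 17 tested proteases and inhibitors 4 fell and 2 rose. The lysosomal protease gene Ctsb, on chromosome 14, fell to 39.8 ± 1.2 CPM in KO, against 262.9 ± 41.7 in WT (edgeR FDR 0.0021), and Ctsl (another lysosomal protease), Htra1 (a secreted one) and Timp1 (a metalloprotease inhibitor) fell (edgeR FDR 0.013, 0.015 and 0.032), whereas Timp3 and Serpine2, both for protease inhibitors, rose (edgeR FDR 0.032 and 0.034). Of 15 tested TGF-beta and matrix regulators 2 fell, the matrix signalling gene Ccn1 (log2 fold change -2.25, edgeR FDR 0.0077) and the ligand gene Tgfb2 (-2.80, edgeR FDR 0.032), and Skil, a repressor of SMAD signalling, rose to 131.2 ± 3.9 CPM in KO, against 28.6 ± 10.9 in WT (edgeR FDR 0.0074).

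**Figure D4:**
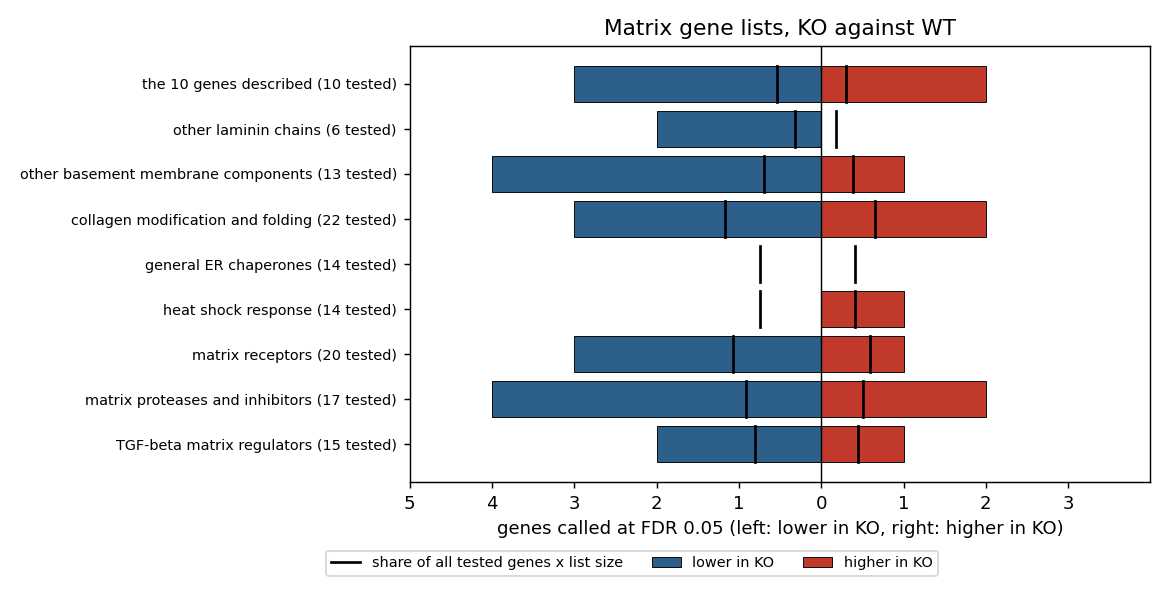
Numbers of genes called lower (left, blue) and higher (right, red) in KO in each matrix list, with black ticks at the number that the share of all tested genes (5.34% lower, 2.96% higher) would give for a list of that size. The 10 genes described have 3 lower and 2 higher calls, and the chaperones of the endoplasmic reticulum have none.

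Of these 26 calls outside the 10 genes, 10 held with each library left out in turn. The lower calls of the lists numbered 18 with all libraries, 8 without KO library B and 10 without KO library F. Those of Nid2, Crtap, Colgalt1, Sdc4, Ctsl, Itgb5 and Tgfb2 were lost without KO library B and also without KO library F, those of Lamb2 and Ddr2 without KO library B, those of Sparcl1 and Timp1 without KO library F, and Tgfb2 and Timp1 also without WT replicate 2. Among the higher ones P4ha1, Timp3 and Serpine2 were lost without KO library B and Timp3 without WT replicate 2, while Frem1 was not tested without KO library F.

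The profiles closest to 2 of the genes were sought over the 4 libraries as the distance between centred log2 CPM values, among 7524 other genes of at least 20 CPM. Closest to Serpinh1 were Cadm4 (distance 0.093), Tgm2 (0.13), which encodes a matrix-crosslinking transglutaminase, and Rnpepl1 (0.15). Closest to Lamb1 were Ptpn13 (0.20), the gap junction gene Gja1 (0.22) and Rragb (0.23). Cadm4, for instance, had 16.4 and 12.8 CPM in KO libraries B and F and 51.2 and 67.2 CPM in WT replicates 1 and 2. Such likeness describes 4 libraries that share the genotype contrast.

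Markers of other cells that make basement membrane were checked in the same libraries. The pluripotency markers summed to 8551 and 7684 CPM in KO libraries B and F and 6728 and 8773 CPM in WT replicates 1 and 2. Of 10 tested, 2 rose, Utf1 (log2 fold change 2.38, edgeR FDR 0.0052) and Dppa4 (1.17, edgeR FDR 0.026), and none fell; the call of Dppa4 was lost without KO library B and without KO library F. The targeted gene Klf4 had 0 counts in both KO libraries, against 2882 and 2421 in WT replicates 1 and 2. Of 16 primitive and parietal endoderm markers 9 were tested, of which 3 rose (Lrp2, Cubn and Gata6) and 1 fell (Fst). Lrp2, the gene of the endocytic receptor megalin, made up most of the KO sum with 143.8 ± 61.9 CPM in KO, against 19.5 ± 10.9 in WT. Cubn, for the partner receptor of megalin, had 15 counts in KO library B, 19 in KO library F and none in WT. Gata6, a defining transcription factor, was at 2.92 ± 0.11 CPM in KO and 0.38 ± 0.07 in WT. Its call was lost without KO library B, KO library F or WT replicate 2, and that of Fst without KO library B. Sox17 and Foxa2, which also define the lineage, were near 0, with 2 and 9 counts of Sox17 in KO libraries B and F against 2 and 4 in WT replicates 1 and 2, and 2 and 0 counts of Foxa2 against 3 and 0. Gata4, on chromosome 14, had 17 and 4 counts in the KO libraries (B, then F) and 37 and 48 in WT replicates 1 and 2 (edgeR FDR 0.13).

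Of 16 fibroblast and feeder markers 5 were tested, and none passed in edgeR (3 at an unadjusted p under 0.05), DESeq2 or limma voom. Postn and Lum had no count in any library, and Col3a1 had 0 and 1 in KO libraries B and F and 0 and 1 in WT replicates 1 and 2. Of 7 endothelial markers 3 were tested and 1, Vwf, was lower (edgeR FDR 0.048), while Cdh5 and Emcn were at 0 throughout. Of 8 trophectoderm markers 3 were tested and 1, Hand1, was higher (edgeR FDR 0.039). Both calls were lost without KO library B, KO library F or WT replicate 1, and that of Hand1 also without WT replicate 2. In bulk RNA fewer cells of a type and less RNA per cell cannot be told apart, and the part of these markers in the results was not tested. The genotypes also differed by chromosome. On chromosome Y, 4 of 5 tested genes were lower in KO, with a median log2 fold change of -10.06. On chromosome 14, 82 of 467 tested genes were lower, with a median of -0.63. The 10 genes lie on other chromosomes, while the listed genes Nid2, Loxl2, Ctsb and Gata4 lie on chromosome 14. The part of these differences in the results was not tested. Loss of Klf4 and any other difference between the KO and WT cultures cannot be told apart.

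Contacts of RNA polymerase II sites were listed at all 10 genes in KO and at 4 in WT. Pairs with an anchor on a gene's span, extended by 5 kb, held 902 of 401726 PETs in the KO pool and 22 of 35189 in the WT pool, that is 224.5 PETs per 100000 in KO (exact Poisson 95% interval 210.1 to 239.7) and 62.5 in WT (39.2 to 94.7). These intervals cover counting error only. There is 1 pool per genotype, so no test was made. Anchors were listed separately in each pool and cover 67.0 Mb in KO, against 19.0 Mb in WT, so such sums move with how much was called. For a gene with no PET in WT, 3 PETs would be 8.53 per 100000 and the exact Poisson upper limit is 10.5, both for counting error and not for a site that was not listed as an anchor there.

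In the KO pool Hspg2 and Lamc1 had the most contacts of the 10. Hspg2 had 8 anchors and 452 PETs in KO, or 112.5 per 100000 (102.4 to 123.4), and 1 anchor and 10 PETs in WT, or 28.4 per 100000 (13.6 to 52.3). Lamc1 had 5 anchors and 156 PETs in KO, 38.8 per 100000 (33.0 to 45.4), and 1 anchor and 4 PETs in WT, 11.4 per 100000 (3.10 to 29.1). For both, the KO interval lies above that of WT. In KO, Hspg2 ranked above 98.4% of 11464 tested genes with a PET in either pool and Lamc1 above 90.0%. The rank is by PETs over the whole extended span and is not adjusted for the length of the gene. Neither passed the expression test.

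Sparc and Serpinh1, which fell in RNA, had listed contacts in the KO pool alone. Sparc had 3 anchors and 100 PETs in KO, 24.9 per 100000 (20.3 to 30.3) and no listed anchor in WT. Serpinh1 had 1 anchor, over its start, with 59 PETs in KO, 14.7 per 100000 (11.2 to 18.9) and no listed anchor in WT. PETs in KO with none in WT were found for 6 of the 10 genes, a pattern of 30.4% of those 11464 genes. Hspg2, Lamc1 and Sparc had at least 2-fold more in KO per 100000 than in WT or, with none there, than the level of 3 WT PETs, as had 9.58% of those genes.

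For the other genes the counts of both pools were close or too few. Fn1 had 69 PETs in KO, 17.2 per 100000 (13.4 to 21.7), and 7 in WT, 19.9 per 100000 (8.00 to 41.0), with overlapping intervals. Nid1 had 36 PETs in KO and none in WT, where 8.96 per 100000 in KO is close to the level of 3 WT PETs. Lamb1 had 12 PETs in KO and 1 in WT, 2.99 and 2.84 per 100000. Col4a1 and Col4a2 share an anchor of 3341 bp over their common promoter with 7 PETs in KO, a second anchor inside Col4a2 had 9, and neither gene had any in WT. Lama1 had 3 single PETs in KO and none in WT. For Lama1, Lamb1, Col4a1 and Col4a2 the depth of the WT pool cannot show a difference.

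**Figure D5:**
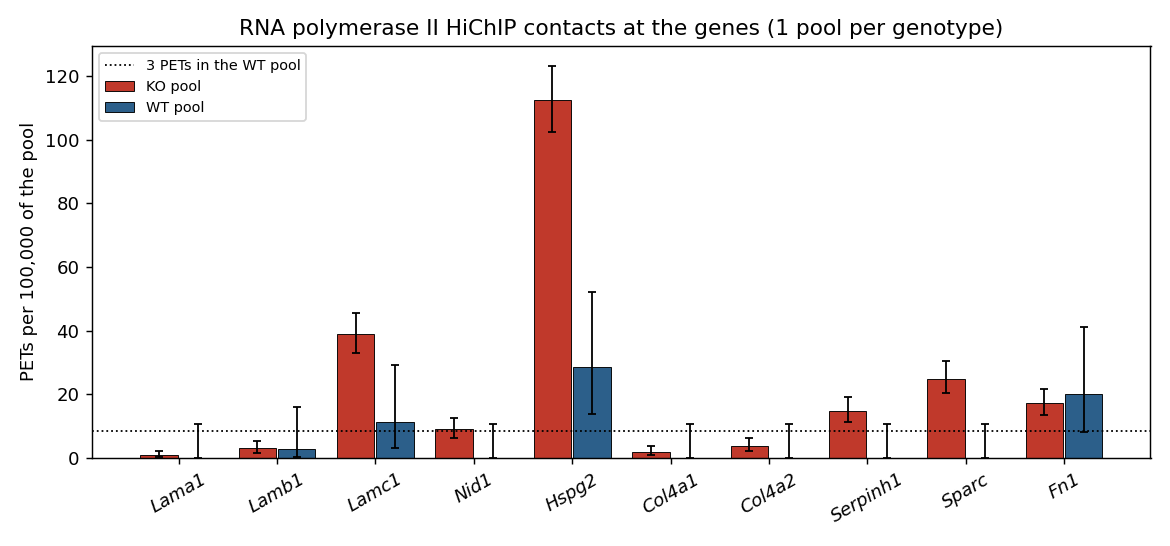
PETs per 100000 PETs of the pool at each gene, KO left of WT, with exact Poisson 95% intervals for counting error and a dotted line at 3 PETs of the WT pool. KO bars of Hspg2 (112.5), Lamc1 (38.8), Sparc (24.9) and Serpinh1 (14.7) stand above the WT bars and the dotted line, and those of Fn1 (17.2 in KO, 19.9 in WT) have overlapping intervals.

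Partners joined by at least 3 PETs were listed in KO, and no pair of a WT pool anchor to a site outside the gene reached that number. Hspg2 was joined by 42 PETs to a site 18.3 kb beyond its span, near the start of the deubiquitinase gene Usp48, and by 33 PETs to one 17.6 kb on its other side. Lamc1 was joined by 17 and 10 PETs to sites within Nmnat2, the neighbour for an NAD-producing enzyme. Sparc had 14 PETs to a site 7.49 kb away, 12 to one within 5 kb of the start of G3bp1 and 8 to one as close to that of Atox1. Serpinh1 had 10 PETs to a site 5.97 kb beyond its span. It also had 4 to a site within Map6, 4 to one within Gdpd5 and 4 to one within 5 kb of the start of Klhl35. Fn1 had 5 PETs to a site 582 kb away near the start of D230017M19Rik, 4 to one 555 kb away at Mreg and 4 to one 26.6 kb away at Atic. Lamb1 had 4 PETs to a site 33.0 kb away with no coding gene, and Col4a2 had 3 to a site at the starts of Cars2 and Ing1.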

How the data were processed

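The authors deposited whole-number read counts per Ensembl gene, not normalised, and counts of PETs per anchor pair; per the submitters' processing notes the tools named for mm10 were HiC-Pro 2.11.4, HTSeq 0.9.1, DESeq2 1.18.1 and HISAT2 2.1.0. What made the loops, the strand setting, the annotation release and any filter was not given in the sources used here. Gene counts summed to 8287497 to 9762190 per library, 34.5% to 36.0% of records; reads in no gene (37.2% to 40.5%) and the other summary records were left out. Columns of KO bear a letter (B or F) in place of a replicate number.

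Expression was fitted over 15517 genes with edgeR 4.0.16 (R 4.3.3; filterByExpr filter, TMM, quasi-likelihood, genotype as the only term). Alternatives were RLE factors, library totals, DESeq2 1.42.0, limma 3.58.1 voom, other filters and leaving out each library. Members and lists were chosen with earlier results of these data known. Genes named are the 10, Klf4, up to 4 per list with the smallest p, defining markers, and the nearest profiles; Sparcl1, Colgalt1, Timp1, Serpine2, Lama5 and Hspa5 were added after their values were seen. A listed gene that the rule names is not reported here. Levels per exon length were planned and not computed, since the supplied tables give spans only. Anchors overlapping a RefSeq span (extended by 5 kb) by at least 1 bp were counted with pandas 2.3.3.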

Additional observations from a re-analysis of the deposited data

How the results depend on the processing

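RLE factors, library totals, limma voom and the stricter filter changed no call among the 10 genes; with library totals 14 other listed genes were lower. With no expression filter, 0 were called higher and 0 lower, against 2 and 3, and 0 and 0 of the other listed genes, against 8 and 18. DESeq2 called 5 lower, and 1013 of all 15517 tested genes lower, against 828 in edgeR. Leaving out 1 library gave 1 to 2 higher and 3 to 6 lower calls among the 10 genes, and 6 to 11 higher and 8 to 23 lower calls in the other lists. Over those fits the log2 fold change of Lamc1 ran from -0.86 to 0.14 and that of Col4a2 from -0.20 to 0.67. Reversed values were the log2 fold changes of Lamc1 without WT replicate 1 (0.14) and of Col4a2 without KO library F (-0.09) and without WT replicate 2 (-0.20). The cause of these changes was not tested. No paired analysis was possible because the KO libraries carry letters and no replicate number. The planned levels per length were not run.

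For HiChIP, a window of 5 kb around annotated starts, known for 7 of the genes, gave 67.0 PETs per 100000 in KO and 31.3 in WT. Pairs of at least 2 PETs gave 205.2 in KO and 24.6 in WT, per 100000 PETs in pairs of that kind. Pairs spanning at least 20 kb gave 308.4 in KO and 88.7 in WT, again per 100000 PETs in pairs of that kind. The 88.7 in WT was within the counting interval of the value over all pairs, which has another base. Other windows and the stricter overlap stayed within the counting intervals. The 2 libraries per genotype and the 35189 PETs of the WT pool limit what can be resolved.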
